A study of Homo sapiens with 36 samples.

Results

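Imprinted genes are transcribed mainly or only from the copy inherited from 1 parent. Here 34 of them were taken by symbol from a deposited count table of 36601 genes, and all 34 had a row. Textbook knowledge puts 22 as expressed from the paternal copy, 8 from the maternal copy and 4 as mixed between tissues or disputed. The values come from 12 bulk RNA libraries of cells labelled HEK293, an established human line from embryonic kidney, in 4 groups of 3. These were clone 5 with the ligand HyT36, clone 5 with the vehicle DMSO, clone 4 with HyT36 and clone 4 with DMSO. HyT36 is a hydrophobic ligand of HaloTag, a protein fusion tag, and was used at 25 µM. Both clones come from a pool in which guide RNAs directed the tag into endogenous genes, and each is a single clone, so the clone, its guide or guides and its tagged protein cannot be told apart. The tagged protein of each clone, and the exposure time of the bulk cultures, were not stated in the labels used here.

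An imprint is a DNA methylation mark laid down on one parental copy in the germ line. It is read after fertilisation by zinc finger proteins such as ZFP57 and ZNF445, which recruit TRIM28 and the histone methyltransferase SETDB1 and protect the mark, while DNMT1 copies it at each cell division. Imprinted genes often lie in clusters and many act on fetal growth. Many are silent in a given adult tissue or cell line, and cultured clones of a line can differ in them. The reads were not assigned to parental copies, so every value below is the sum over all copies of a gene.

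Gene counts per library ranged from 22853946 to 28635511, scaled to CPM (counts per 1000000 gene counts), so that 1 CPM rested on more than 20 reads. Reads of a guide named for IGF1R ranged from 2623 to 3806 per library in clone 5 and from 5 to 13 in clone 4, and reads of a guide named for HDAC2 ranged from 2 to 18 in clone 5 and from 2318 to 3504 in clone 4. Another guide, named for LRIG1, had 107 to 140 reads per library in clone 5 and 0 in clone 4. Of 7 markers of HEK293 cells, LIN28B, GATA2 and VIM were well expressed, at 128 CPM or more, 69.1 CPM or more and 151 CPM or more in each library. The other 4 were at or near 0: IRS4 reached at most 0.521 CPM, SOX11 0.170 CPM, NEFM 0.126 CPM and NEFL 0.0423 CPM, so the markers bear out the label only in part. In 6 libraries the summed level of 12 epithelial markers was 53.0 to 104 CPM, and in the other 6 it was 4.62 to 7.91 CPM. Those 6 were all 3 of clone 5 with DMSO, replicates 2 and 3 of clone 4 with HyT36 and replicate 1 of clone 4 with DMSO. KRT19, an epithelial keratin, was at 32.2 to 69.9 CPM in them and at 0.0419 to 0.235 CPM in the others. Each clone holds 3 such libraries, whereas inside clone 5 they coincide with DMSO. Summed fibroblast markers were at 6.51 to 10.5 CPM, blood markers at 1.86 CPM or less and endothelial markers at 0 to 0.347 CPM. In bulk RNA, fewer cells of a type and less RNA per cell cannot be told apart.

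Of the 34 genes, 17 had enough reads to be tested, 13 had at least 1 read but were too low for a test, and 4 had no read in any library. MEST, ZDBF2, GRB10, GNAS and PEG10 were lower in clone 5 than in clone 4, and MKRN3, H19 and INPP5F were higher. In the comparison of clone 5 with clone 4 averaged over HyT36 and DMSO, 12 of the 17 passed, 4 higher and 8 lower in clone 5, by edgeR's quasi-likelihood F-test with p-values adjusted by Benjamini and Hochberg over all genes tested and a threshold of 0.05. That is 70.6% of the tested members, close to the 66.7% of all 14892 genes tested that passed there, so the count says nothing particular about imprinted genes. Over all genes tested the directions were nearly even, with 32.7% higher and 33.9% lower. The median log2 difference was -0.08 over the 17 members and about 0 over all genes (-0.008). In 7 of the 17 the 6 clone 5 libraries did not overlap the 6 clone 4 libraries, 2 of them higher in clone 5 and 5 lower. Of all genes tested 40.4% were separated in that way, 20.2% higher and 20.2% lower.

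**Figure D1:**
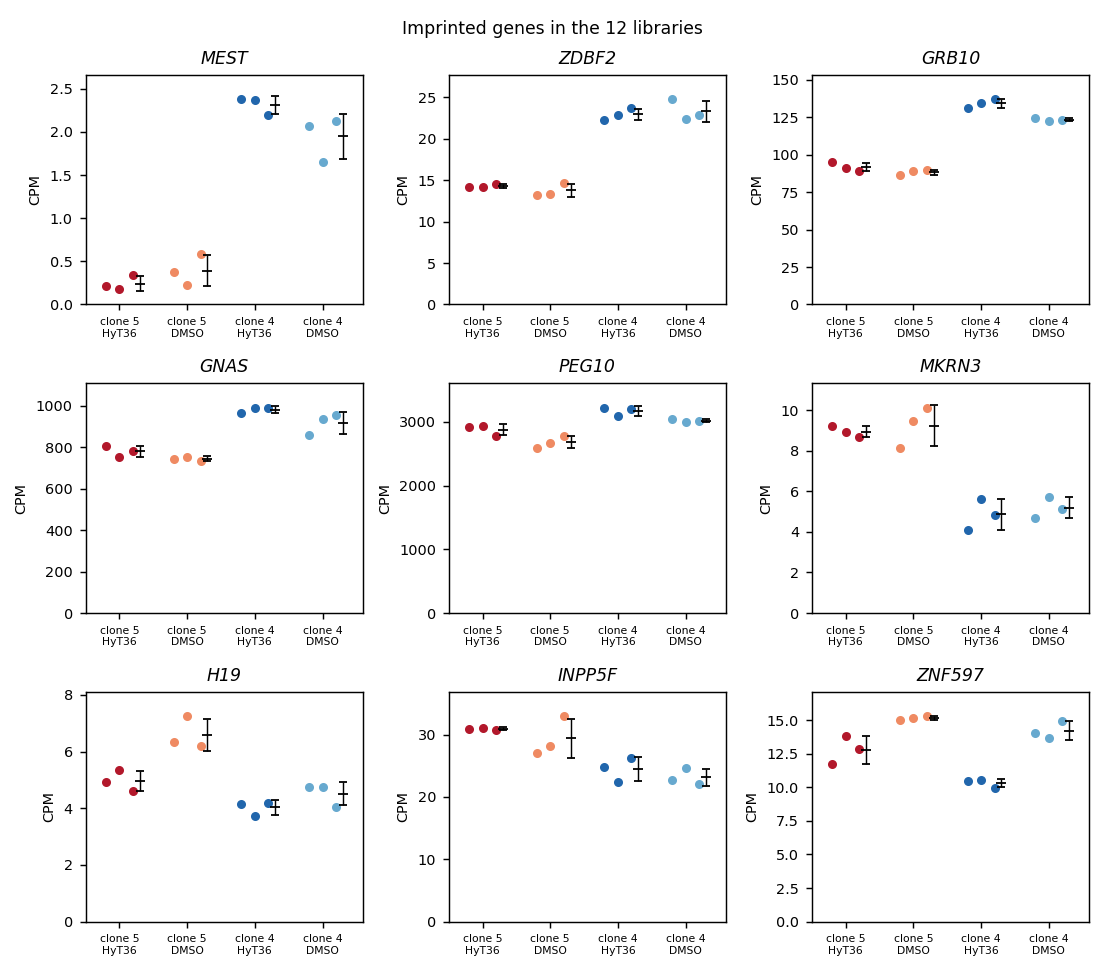
CPM (y axis, from 0, TMM-scaled) of 9 imprinted genes in each library, with groups on the x axis; points are libraries and the dash with bars is the group mean ± SD (n = 3). The clone 5 points of MEST, ZDBF2, GRB10, GNAS and PEG10 all lie below the clone 4 points, those of MKRN3 and INPP5F all lie above them, and ZNF597 is lower with HyT36 than with DMSO in both clones.

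Among paternally expressed genes, MEST showed the widest gap between the clones. MEST encodes a protein of the alpha/beta hydrolase family that is best known as a marker of fetal mesoderm, and lies on chromosome 7 at 130486175 to 130506465 (GRCh38.p14). Its levels were 0.209, 0.174 and 0.340 CPM in clone 5 with HyT36 and 0.375, 0.221 and 0.583 CPM in clone 5 with DMSO. They were 2.38, 2.37 and 2.19 CPM in clone 4 with HyT36 and 2.07, 1.65 and 2.12 CPM in clone 4 with DMSO. Every clone 5 library was below every clone 4 library, on 48 reads in all in clone 5 and 329 in clone 4. The log2 difference was -2.76 ± 0.23 (SE, edgeR adjusted p = 1.3e-13), a level 6.79-fold lower in clone 5. It was about as large inside the 6 libraries rich in epithelial transcripts, where clone 5 with DMSO met replicate 1 of clone 4 with DMSO (-2.38 ± 0.41, edgeR adjusted p = 1.8e-06), and inside the other 6, where clone 5 with HyT36 met replicate 1 of clone 4 with HyT36 (-3.27 ± 0.43, edgeR adjusted p = 4.6e-13). In such fits a group left with 1 library is assumed to vary like the others. Every clone 5 library held some reads of MEST, 5, 4 and 8 with HyT36 and 9, 6 and 16 with DMSO. Whether they came from all or only some of the cells, or from the overlapping gene COPG2, was not tested.

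ZDBF2, a zinc finger gene whose paternal expression follows a transcript that starts far upstream, lies on chromosome 2 at 206274663 to 206314427. ZDBF2 was at 14.2, 14.2 and 14.6 CPM in clone 5 with HyT36 and at 13.2, 13.3 and 14.7 CPM in clone 5 with DMSO. In clone 4 it was at 22.3, 22.9 and 23.6 CPM with HyT36 and at 24.8, 22.4 and 22.9 CPM with DMSO. The clones were separated under both treatments, with a log2 difference of -0.72 ± 0.05 (SE, edgeR adjusted p = 1.2e-15). PEG10, a gene derived from a retrotransposon and needed for the placenta in mice, took more reads than any other member, a count that also grows with transcript length. PEG10 levels were 2780 to 2937 CPM in clone 5 with HyT36 and 2598 to 2785 CPM in clone 5 with DMSO, against 3089 to 3224 CPM in clone 4 with HyT36 and 3002 to 3042 CPM in clone 4 with DMSO. The step was small beside that of MEST, at -0.16 ± 0.02 on the log2 scale (SE, edgeR adjusted p = 3.5e-07), and the libraries of the clones still did not overlap.

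MKRN3 and INPP5F moved the other way. MKRN3 encodes a ring finger protein, and loss of its paternal copy in people brings on early puberty. It lies in the imprinted region of chromosome 15, at 23565674 to 23568044. MKRN3 levels were 9.21, 8.95 and 8.70 CPM in clone 5 with HyT36 and 8.12, 9.49 and 10.1 CPM in clone 5 with DMSO, against 4.11, 5.63 and 4.85 CPM in clone 4 with HyT36 and 4.70, 5.73 and 5.12 CPM in clone 4 with DMSO. All 6 clone 5 libraries were above all 6 of clone 4, with a log2 difference of 0.86 ± 0.09 (SE, edgeR adjusted p = 2.2e-11), or 1.81-fold. INPP5F, a phosphoinositide phosphatase gene of which only a short variant is known to be imprinted, was at 30.8 to 31.1 CPM in clone 5 with HyT36 and 27.1 to 32.9 CPM in clone 5 with DMSO. In clone 4 it was at 22.3 to 26.2 CPM with HyT36 and 22.1 to 24.6 CPM with DMSO, and the log2 difference was 0.34 ± 0.05 (SE, edgeR adjusted p = 2.1e-07). The table counts whole genes, so the imprinted variant of INPP5F was not measured apart.

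Promoter windows of the 3 genes that moved most are shown because methylation marks and the proteins that read them act on such sequence. They are RefSeq windows of GRCh38.p14, from 250 bases before to 50 bases after a transcript start, written 5′ to 3′ on the strand of the gene. Capitals mark TGCCGC or its reverse complement GCGGCA, the hexamer that ZFP57 binds when its CpG is methylated.
MEST, chr7:130486097-130486396, plus strand: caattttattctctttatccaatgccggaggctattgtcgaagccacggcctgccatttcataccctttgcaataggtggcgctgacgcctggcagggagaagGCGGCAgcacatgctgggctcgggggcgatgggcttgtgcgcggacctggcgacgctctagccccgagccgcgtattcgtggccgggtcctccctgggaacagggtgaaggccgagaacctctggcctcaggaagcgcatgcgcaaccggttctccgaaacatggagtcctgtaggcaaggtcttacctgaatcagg
MEST, chr7:130491835-130492134, plus strand: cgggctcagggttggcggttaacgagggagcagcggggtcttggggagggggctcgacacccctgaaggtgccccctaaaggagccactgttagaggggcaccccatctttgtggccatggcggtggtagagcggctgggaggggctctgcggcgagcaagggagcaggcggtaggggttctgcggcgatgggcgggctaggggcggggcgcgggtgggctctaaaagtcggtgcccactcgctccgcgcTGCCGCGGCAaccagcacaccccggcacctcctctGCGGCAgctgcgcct
ZDBF2, chr2:206274760-206275059, plus strand: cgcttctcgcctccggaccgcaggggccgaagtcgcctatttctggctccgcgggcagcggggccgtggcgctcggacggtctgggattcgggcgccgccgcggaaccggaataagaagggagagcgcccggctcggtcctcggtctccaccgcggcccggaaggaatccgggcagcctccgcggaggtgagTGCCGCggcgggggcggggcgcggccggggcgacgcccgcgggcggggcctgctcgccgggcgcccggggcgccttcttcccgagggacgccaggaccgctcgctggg
MKRN3, chr15:23565424-23565723, plus strand: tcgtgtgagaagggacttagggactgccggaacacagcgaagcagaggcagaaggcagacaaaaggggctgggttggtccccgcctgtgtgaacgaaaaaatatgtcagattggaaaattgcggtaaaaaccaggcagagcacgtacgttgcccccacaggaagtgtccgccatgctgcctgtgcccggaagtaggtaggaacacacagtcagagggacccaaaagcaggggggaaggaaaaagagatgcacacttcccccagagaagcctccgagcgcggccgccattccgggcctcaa
The first MEST window holds 22 CpG sites and 1 match, and the second, at a start further into the gene, holds 25 CpG sites and 3 matches, 2 of which overlap on opposite strands. The ZDBF2 window holds 50 CpG sites and 1 match, and the MKRN3 window holds 15 CpG sites and none. The windows shown for MEST and ZDBF2 were picked after their matches were seen. In order of position the 5 windows of MEST hold 1, 1, 0, 2 and 3 matches, and the ZDBF2 window not shown holds 18 CpG sites and no match. RefSeq windows were at hand for 22 of the 34 genes, 50 distinct windows in all, and 20 of the 50 (40.0%) held the hexamer on either strand. Among all 34943 RefSeq windows 5839 (16.7%) held it, with a median of 14 CpG sites against 18 in the windows of the imprinted genes. Windows with more CpG sites have more chances of a match, the windows of 1 gene overlap, and a match is not a binding site. Methylation was not measured in these libraries.

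Of the 6 maternally expressed genes tested 2 were higher and 1 was lower in clone 5. H19, a long noncoding RNA and the maternal partner of IGF2 on chromosome 11, was at 4.94, 5.34 and 4.63 CPM in clone 5 with HyT36 and at 6.33, 7.25 and 6.20 CPM in clone 5 with DMSO. It was at 4.15, 3.74 and 4.20 CPM in clone 4 with HyT36 and at 4.74, 4.75 and 4.04 CPM in clone 4 with DMSO. Under each treatment the clones did not overlap, whereas clone 5 with HyT36 overlapped clone 4 with DMSO and the clone 4 groups overlapped each other. The averaged log2 difference was 0.43 ± 0.10 (SE, edgeR adjusted p = 1.6e-04). H19 lies inside the RefSeq span of MRPL23, which was also higher in clone 5 (0.28, edgeR adjusted p = 4.8e-08). Reads from a stretch they share cannot be told apart. H19 passed with DMSO alone (0.55, edgeR adjusted p = 5.7e-04) and not with HyT36 alone (0.30, edgeR adjusted p = 0.058). ZNF597, a zinc finger gene on chromosome 16, was also higher in clone 5 on average (log2 difference 0.20 ± 0.06, SE, edgeR adjusted p = 0.0029). It passed with HyT36 alone (0.31, edgeR adjusted p = 0.0020) and not with DMSO alone (0.09, edgeR adjusted p = 0.35), and its levels by library stand with the ligand response. UBE3A, the ubiquitin ligase gene whose maternal loss causes Angelman syndrome and which is imprinted only in neurons, was at 147 to 165 CPM in clone 5 and at 160 to 166 CPM in clone 4. UBE3A was lower in clone 5 by a small step (-0.08 ± 0.03, SE, edgeR adjusted p = 0.0091), which did not pass without replicate 1 of clone 5 with DMSO (edgeR adjusted p = 0.0504).

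The growth inhibitors of chromosome 11 did not pass. CDKN1C, an inhibitor of cyclin-dependent kinases whose loss causes overgrowth in people, was at 1.88 to 3.31 CPM in clone 5 and at 1.78 to 2.70 CPM in clone 4. Its log2 difference was 0.30 with an approximate 95% interval of 0.0042 to 0.60 and an edgeR adjusted p of 0.078. Without replicate 2 of clone 5 with HyT36, replicate 2 of clone 5 with DMSO or replicate 3 of clone 4 with HyT36, each left out alone, CDKN1C passed, with edgeR adjusted p between 0.021 and 0.048. PHLDA2, which limits placental growth in mice, was at 0.109 to 0.666 CPM in clone 5 and at 0.353 to 0.677 CPM in clone 4, and its interval of -0.83 to 0.47 leaves room for a change in either direction. PPP1R9A, a neuronal scaffold of protein phosphatase 1, did not pass either (0.08, interval -0.03 to 0.18, edgeR adjusted p = 0.20), and passed only without replicate 1 of clone 5 with HyT36 (edgeR adjusted p = 0.048).

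All 4 genes of mixed or disputed imprinting were lower in clone 5, where 33.9% of all genes tested were lower and 66.7% passed in either direction. With DMSO alone 2 of the 4 passed, and with HyT36 alone 2, all lower. Of all genes tested 28.2% and 28.9% were lower in those comparisons. GRB10, an adaptor that damps insulin and IGF1 receptor signalling and whose imprinting in people differs between tissues, with paternal expression in the brain, was at 95.1, 91.0 and 89.3 CPM in clone 5 with HyT36 and at 86.4, 89.0 and 89.7 CPM in clone 5 with DMSO. In clone 4 it was at 131, 134 and 137 CPM with HyT36 and at 125, 123 and 123 CPM with DMSO. No library of 1 clone reached the range of the other, and the log2 difference was -0.52 ± 0.03 (SE, edgeR adjusted p = 2.1e-19). GNAS, which encodes the stimulatory G protein alpha subunit and several imprinted variants, was at 752 to 805 CPM in clone 5 with HyT36 and 732 to 755 CPM in clone 5 with DMSO. GNAS was at 964 to 991 CPM in clone 4 with HyT36 and 858 to 956 CPM in clone 4 with DMSO, a log2 difference of -0.32 ± 0.03 (SE, edgeR adjusted p = 9.8e-14). The table does not separate the GNAS variants, and an antisense transcript overlaps the gene.

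DLX5 and BLCAP fell by less, and their clones overlapped. DLX5, a homeobox gene of bone and limb, was at 48.2 to 65.0 CPM in clone 5 and 51.7 to 65.3 CPM in clone 4 (log2 difference -0.12 ± 0.04, SE, edgeR adjusted p = 0.012). BLCAP, a gene of the cell cycle and apoptosis that surrounds NNAT, was at 36.0 to 43.3 CPM in clone 5 and 40.6 to 47.6 CPM in clone 4 (-0.10 ± 0.04, SE, edgeR adjusted p = 0.022). DLX5 lost its call without replicate 3 of clone 5 with HyT36, replicate 1 of clone 5 with DMSO or replicate 2 of clone 4 with DMSO (edgeR adjusted p 0.060 to 0.069). BLCAP lost it without replicate 2 of clone 5 with HyT36 or replicates 2 or 3 of clone 4 with DMSO (edgeR adjusted p 0.058 to 0.095), and in the fit without a filter (edgeR adjusted p = 0.055).

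NAP1L5 and SGCE had the log2 differences closest to 0 among the tested members. NAP1L5, a paternally expressed gene of the nucleosome assembly family that lies inside an intron of HERC3, was at 37.3 to 40.2 CPM in clone 5 and 37.5 to 41.2 CPM in clone 4, with an interval of -0.10 to 0.05 on the log2 scale. SGCE, a sarcoglycan gene whose loss causes a movement disorder and which starts next to PEG10 on the opposite strand, was at 65.3 to 73.1 CPM in clone 5 and 62.0 to 70.8 CPM in clone 4, with an interval of -0.01 to 0.12. SGCE passed only without replicate 1 of clone 4 with HyT36 (edgeR adjusted p = 0.048).

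With DMSO alone 9 of the 17 passed, 3 higher and 6 lower in clone 5, beside 55.5% of all genes tested (27.3% higher and 28.2% lower). With HyT36 alone 8 passed, 3 higher and 5 lower, beside 56.0% (27.0% higher and 28.9% lower). MEST differed by -2.29 with DMSO and -3.24 with HyT36, and MKRN3 by 0.84 with DMSO and 0.88 with HyT36.

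**Figure D2:**
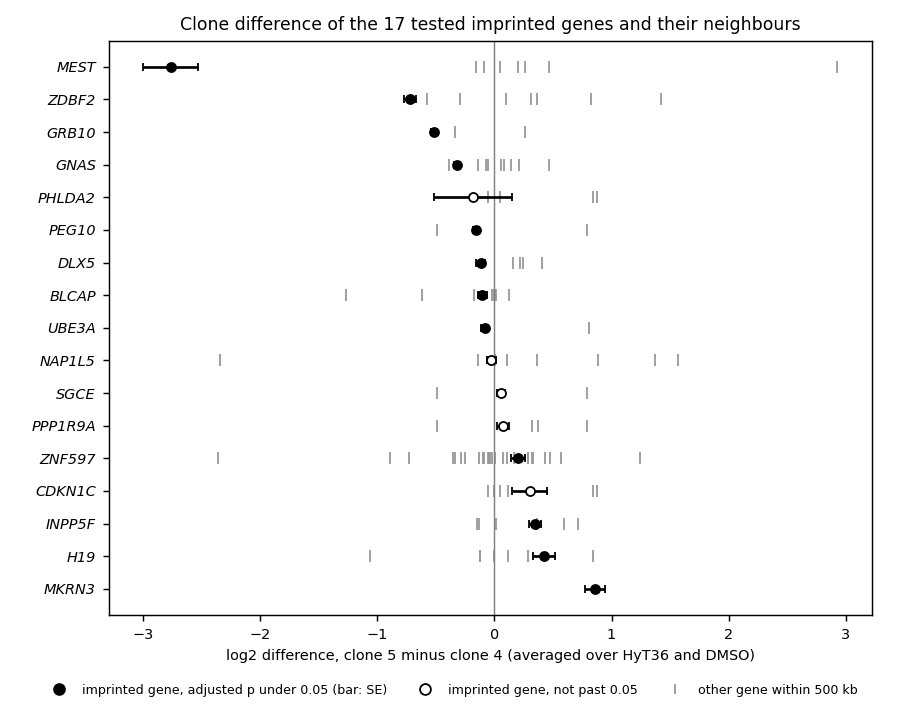
Log2 difference of clone 5 minus clone 4, averaged over HyT36 and DMSO (x axis), for the 17 tested imprinted genes (rows, lowest at the top). Circles carry SE bars and are filled where the adjusted p is under 0.05. Grey ticks are other tested genes that could be placed within 500 kb. MEST lies at -2.76 while all but 2 of its 7 neighbours lie above 0, and DLX5 lies at -0.12 while its 4 neighbours lie between 0.16 and 0.40.

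Genes around the imprinted ones moved in both directions. Only the 13349 tested genes that were matched to a chromosome by symbol could be placed, so neighbours without a match are missing here. Of the placed genes, 92 that were not members lay within 500 kb of the tested members. Among these 92, 41 were higher and 23 lower in clone 5, beside 32.7% higher and 33.9% lower over all genes. The share of neighbours called, 69.6%, was near the background of 66.7%. The neighbours named here were picked after their values were seen. Around MEST, 3 of 7 neighbours were higher and 1 lower. COPG2, a coat protein gene that overlaps MEST, did not pass (-0.09, edgeR adjusted p = 0.13), and reads from the stretch they share cannot be told apart. CEP41, a centrosomal gene on its other side, was higher (0.26, edgeR adjusted p = 2.4e-07). Around ZDBF2, EEF1B2, a translation elongation factor, was lower (-0.57, edgeR adjusted p = 3.3e-20) and ADAM23, a membrane protein on the other side, was higher (0.31, edgeR adjusted p = 2.3e-07). Around INPP5F, 3 of 6 neighbours were higher with it, GRK5, a kinase of G protein-coupled receptors (0.71, edgeR adjusted p = 7.4e-10), RGS10, a regulator of G protein signalling (0.59, edgeR adjusted p = 9.7e-15), and BAG3, a co-chaperone (0.36, edgeR adjusted p = 3.1e-08), and 2 were lower. GRB10 lies between FIGNL1, a DNA repair ATPase that was lower (-0.33, edgeR adjusted p = 7.9e-10), and COBL, an actin nucleator that was higher (0.26, edgeR adjusted p = 3.1e-05). All 4 neighbours of DLX5 were higher in clone 5, among them its sister gene DLX6 (0.24, edgeR adjusted p = 9.9e-07), whereas DLX5 was lower. ATP10A, a lipid flippase next to UBE3A whose imprinting is reported in some tissues, was higher (0.81, edgeR adjusted p = 2.4e-18). MKRN3 had no other placed tested gene that was not itself a member within 500 kb. The chromosomes that hold the tested members had medians from -0.07 to 0.008 over all their placed tested genes.

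The 17 members too low for a test lay largely in clusters. On chromosome 14 the paternal genes DLK1, a NOTCH ligand, and RTL1, a retrotransposon-derived gene, had 4 and 0 reads over all 12 libraries, and the maternal noncoding RNAs MEG3 and MEG8 had 12 and 1. On chromosome 15 SNRPN, a splicing protein gene, and NDN, a gene of the MAGE family, had 3 reads each and MAGEL2, another of that family, had 0, in the same region as the well expressed MKRN3 and UBE3A. On chromosome 11 IGF2, the fetal growth factor, had 1 read, in clone 5 with DMSO, although its partner H19 was expressed in every library. KCNQ1OT1, the noncoding RNA that silences the CDKN1C cluster in cis, had 8 reads. HYMAI and ZIM2 had 0. For each of the 4 genes with no read, 3 counts over the 12 libraries allow a level of up to 0.00989 CPM, a limit that covers counting error only. ZIM2 shares its start with PEG3, HYMAI lies inside PLAGL1, NNAT inside BLCAP, and SNRPN overlaps SNURF and SNHG14. IGF2 overlaps INS-IGF2 and IGF2-AS, KCNQ1OT1 lies inside KCNQ1, and RTL1 overlaps MEG8. Ambiguous reads, which the deposited table sets aside, made up 6.75 to 7.15% of each library, so levels of such overlapping genes may be too low.

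Among the untested genes PLAGL1 had the most reads and the read ratio with the interval farthest from 1. PLAGL1 encodes a zinc finger transcription factor that inhibits growth, and its overexpression underlies transient neonatal diabetes. Its reads were 3, 2 and 6 in clone 5 with HyT36 and 3, 3 and 1 in clone 5 with DMSO, against 8, 12 and 9 in clone 4 with HyT36 and 6, 8 and 10 in clone 4 with DMSO. Only 1 clone 5 library reached the lowest clone 4 library. The 18 reads in clone 5 and 53 in clone 4 give a depth-corrected ratio of 0.362 with an exact 95% binomial interval of 0.200 to 0.628. In the fit without a filter PLAGL1 passed, at -1.50 ± 0.49 (SE, edgeR adjusted p = 0.0066). L3MBTL1, a reader of methylated histones, had 3 reads in clone 5 and 12 in clone 4, a ratio of 0.266 (0.0483 to 0.987). L3MBTL1 did not pass in the fit without a filter (-2.47 ± 1.13, SE, edgeR adjusted p = 0.068). NNAT, a small membrane proteolipid gene, had 18 and 33, a ratio of 0.581 (0.308 to 1.06), and DIRAS3, a small GTPase and tumour suppressor, had 26 and 34, a ratio of 0.815 (0.470 to 1.40). These intervals cover counting error only, and those of NNAT and DIRAS3 include 1.

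**Figure D3:**
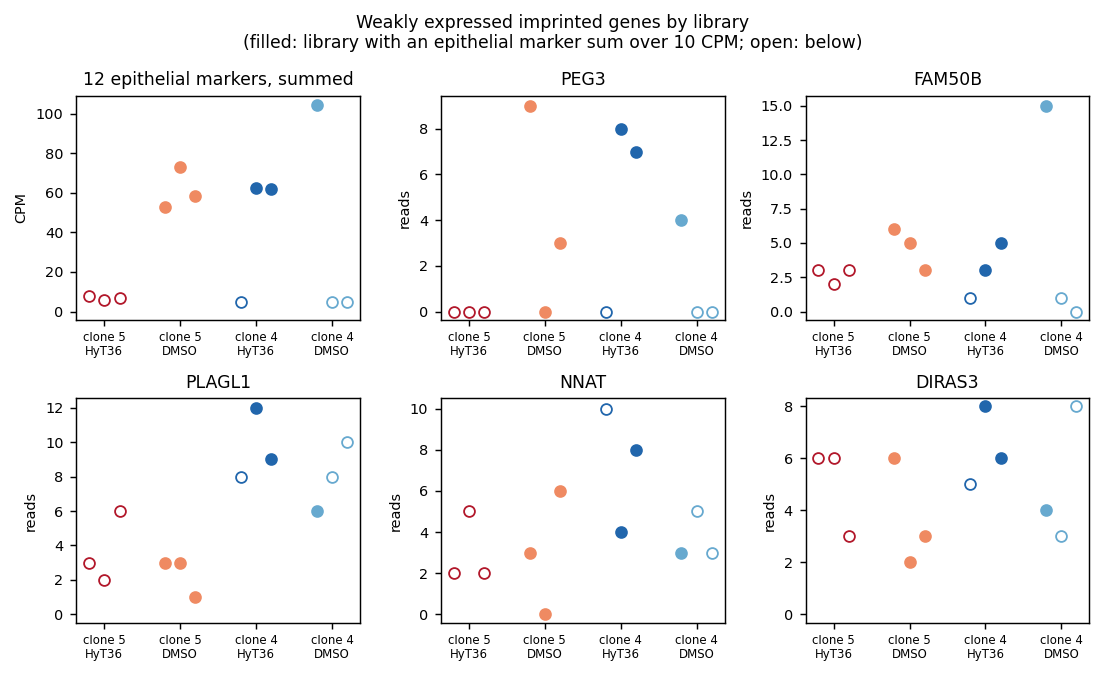
Summed CPM of 12 epithelial markers (first panel) and reads per library (y axes) of 5 imprinted genes too low to be tested, by group on the x axis; each point is a library, filled where the epithelial sum is over 10 CPM. PEG3 has reads only in filled libraries, and FAM50B has its highest value, 15 reads, in the library with the highest epithelial sum.

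Most reads of PEG3 and FAM50B lay in the epithelial libraries. PEG3, a zinc finger gene that controls nurturing and metabolism in mice, had 31 reads in all. Of these, 9, 0 and 3 were in clone 5 with DMSO, 8 and 7 in replicates 2 and 3 of clone 4 with HyT36, and 4 in replicate 1 of clone 4 with DMSO. Every one of the 31 thus fell in the 6 libraries rich in epithelial transcripts, and none in the other 6. FAM50B, a retrocopy gene that is paternally expressed, had 22 reads in clone 5 and 25 in clone 4. It had 37 of its 47 reads there, 15 of them in replicate 1 of clone 4 with DMSO, where the epithelial sum was highest. The part of the epithelial transcripts in these reads was not tested. In the fit without a filter PEG3 passed as lower with HyT36 in clone 5 (edgeR adjusted p = 0.035), where the DMSO libraries are the epithelial ones. There it also passed as lower in clone 5 than in clone 4 with HyT36 (edgeR adjusted p = 0.0028), where replicates 2 and 3 of clone 4 are the epithelial ones, and did not pass between the clones on average (edgeR adjusted p = 0.11).

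Between HyT36 and DMSO some imprinted genes differed by small steps, and in clone 5 the DMSO libraries are also the epithelial ones. In the comparison with DMSO averaged over both clones, 7 of the 17 passed (41.2%), 4 higher and 3 lower, beside 14.7% of all genes tested (6.65% higher and 8.03% lower). DLX5, GRB10, PEG10 and GNAS were higher with HyT36, and ZNF597, BLCAP and H19 were lower. The largest step was that of ZNF597, a log2 difference of -0.35. The median over the 17 was 0.01 and over all genes it was -0.003. In absolute size the median step was 0.086 over the 17 and 0.081 over all genes, so the steps of the members were about as large. Why a larger share of the members passed was not tested. In clone 5 alone 3 of 17 passed, 1 higher and 2 lower, beside 8.19% of all genes (3.35% higher and 4.83% lower), and with DESeq2 size factors the split was 2 higher and 0 lower. In clone 4 alone 1 of 17 passed, which was lower, beside 5.57% of all genes (2.21% higher and 3.36% lower). For the difference between the responses of the clones, edgeR called none of the 17, and none had an unadjusted p under 0.05, nor did DESeq2 or limma-voom call any, where 0.302% of all genes passed. All these comparisons share libraries, so they are not independent of one another.

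**Figure D4:**
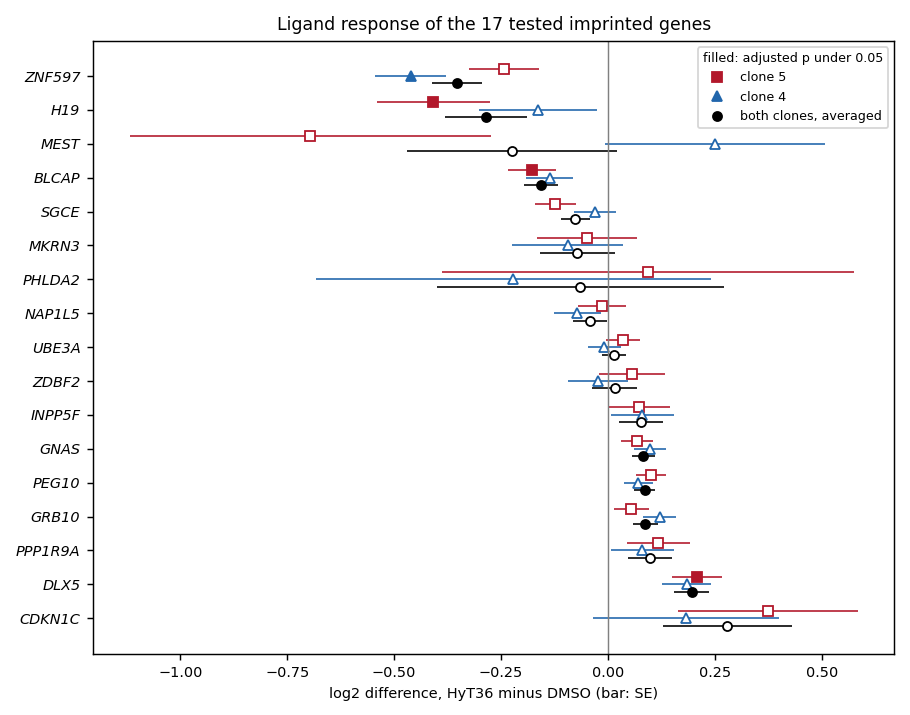
Log2 difference of HyT36 minus DMSO (x axis) for the 17 tested imprinted genes (rows) in clone 5 (squares), in clone 4 (triangles) and averaged (circles), with SE bars; filled symbols have an adjusted p under 0.05. ZNF597 lies at -0.24 in clone 5 and -0.46 in clone 4. MEST in clone 5 lies farthest from 0, at -0.70 with a wide SE of 0.42, and did not pass. H19 lies at -0.41 and CDKN1C at 0.37 in clone 5, and most other genes lie within 0.25 of 0.

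ZNF597 was at 11.7, 13.8 and 12.9 CPM with HyT36 and 15.0, 15.2 and 15.3 CPM with DMSO in clone 5, and at 10.5, 10.6 and 9.97 CPM with HyT36 and 14.1, 13.7 and 15.0 CPM with DMSO in clone 4. In both clones every HyT36 library was below every DMSO library. The averaged log2 difference was -0.35 ± 0.06 (SE, edgeR adjusted p = 2.4e-05), with -0.46 ± 0.08 in clone 4 (edgeR adjusted p = 2.4e-04) and -0.24 ± 0.08 in clone 5 (edgeR adjusted p = 0.058, and 0.041 without replicate 2 of clone 5 with HyT36). In clone 4 the value was the same within the epithelial libraries (-0.45 ± 0.13, SE, edgeR adjusted p = 0.015) and within the others (-0.45 ± 0.14, SE, edgeR adjusted p = 0.067), each with 3 libraries of clone 4.

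DLX5 was higher with HyT36, at 65.0, 58.2 and 56.8 CPM against 48.2, 53.9 and 53.5 CPM with DMSO in clone 5, and at 65.1, 65.3 and 63.2 CPM against 57.6, 61.1 and 51.7 CPM with DMSO in clone 4. The groups did not overlap in either clone, and the averaged difference was 0.20 ± 0.04 (SE, edgeR adjusted p = 8.2e-04). BLCAP was lower, at 37.6, 36.0 and 40.1 CPM with HyT36 against 42.9, 43.3 and 42.3 CPM with DMSO in clone 5, and at 41.8, 41.4 and 40.6 CPM with HyT36 against 42.5, 47.6 and 46.0 CPM with DMSO in clone 4. Again no HyT36 library reached the DMSO range of its clone, and the averaged difference was -0.16 ± 0.04 (SE, edgeR adjusted p = 0.0043). Within clone 5 alone DLX5 passed (0.21, edgeR adjusted p = 0.020) but not without replicate 1 of clone 5 with HyT36 or with DMSO (edgeR adjusted p 0.147 to 0.155). The epithelial transcripts run with DMSO in clone 5, and with them as a covariate DLX5 did not pass there (0.21, edgeR adjusted p = 0.146), nor did it with limma-voom (limma adjusted p = 0.0514). BLCAP passed in clone 5 alone (-0.18, edgeR adjusted p = 0.041) but kept its call only without replicate 3 of clone 5 with HyT36 or replicates 1 or 2 of clone 4 with DMSO, with edgeR adjusted p of 0.052 to 0.21 without each of the other 9 libraries. BLCAP also did not pass there with DESeq2 size factors, without a filter, with DESeq2, with the replicate block or with each clone fitted alone (adjusted p 0.055 to 0.096). H19 in clone 5, described next, kept its call only without replicate 1 of clone 4 with HyT36 or replicates 1 or 2 of clone 4 with DMSO, with edgeR adjusted p of 0.0502 to 0.24 without each of the other 9.

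H19, whose levels are given above, was lower with HyT36 in clone 5 by edgeR's test (-0.41 ± 0.13, SE, adjusted p = 0.046) and did not pass in clone 4, with -0.16 ± 0.14 in clone 4 (SE, edgeR adjusted p = 0.58). With the epithelial transcripts as a covariate H19 no longer passed there (-0.39, edgeR adjusted p = 0.29) or on average (-0.28, edgeR adjusted p = 0.075, against -0.29 and 0.036 without it). H19 also lost its averaged call without any 1 of 7 libraries, which were replicates 1 and 3 of clone 5 with HyT36, replicate 2 of clone 5 with DMSO, replicates 2 and 3 of clone 4 with HyT36 and replicates 1 and 2 of clone 4 with DMSO (edgeR adjusted p 0.055 to 0.12). The averaged call of H19 was also lost without a filter, with DESeq2 or with the replicate block (adjusted p 0.051 to 0.073), and its clone 5 call with these or with DESeq2 size factors (adjusted p 0.052 to 0.088). PEG10, GNAS and GRB10 each were higher with HyT36 by 0.08 to 0.09 on the log2 scale, with edgeR adjusted p of 0.011, 0.028 and 0.030. PEG10 lost its call without replicate 1 of clone 5 with DMSO (edgeR adjusted p = 0.060). GRB10 lost it without replicate 1 of clone 5 with HyT36, replicates 1 or 2 of clone 5 with DMSO, or replicates 2 or 3 of clone 4 with HyT36 (edgeR adjusted p 0.058 to 0.099), and with the replicate block (edgeR adjusted p = 0.0515). GNAS lost it without replicate 1 of clone 5 with HyT36, replicates 1 or 3 of clone 5 with DMSO, replicates 2 or 3 of clone 4 with HyT36, or replicate 1 of clone 4 with DMSO (edgeR adjusted p 0.054 to 0.081). GNAS also lost it with the epithelial covariate (0.07, edgeR adjusted p = 0.102) and with the replicate block (edgeR adjusted p = 0.0501). MEST, ZDBF2 and MKRN3, which separated the clones, did not pass for the ligand.

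Of 42 genes that set, read or erase imprints 37 were tested, and 10 were higher and 22 lower in clone 5, or 86.5% beside the background of 66.7%, with a median of -0.15. A larger share passed, but the median absolute log2 difference of the 37 was 0.176, smaller than the 0.246 of all genes tested. ATRX, a chromatin remodeller, averaged 151 ± 7.65 CPM in clone 5 with HyT36 and 148 ± 2.67 CPM in clone 5 with DMSO, against 77.2 ± 3.85 CPM in clone 4 with HyT36 and 79.5 ± 4.9 CPM in clone 4 with DMSO (SD, n = 3 each), and its log2 difference from clone 4 was 0.93 ± 0.03 (SE, edgeR adjusted p = 9.1e-26). ATRX lies on the X chromosome, where 426 of 482 placed tested genes were higher in clone 5 and the median log2 difference was 0.93. The medians of the other chromosomes ran from -0.08 to 0.008. EHMT2, a histone methyltransferase also called G9a, was lower (-0.56 ± 0.03, SE, edgeR adjusted p = 4.7e-18), and so was SETD2, which methylates histone H3 along transcribed genes (-0.41 ± 0.03, SE, edgeR adjusted p = 9.8e-15).

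**Figure D5:**
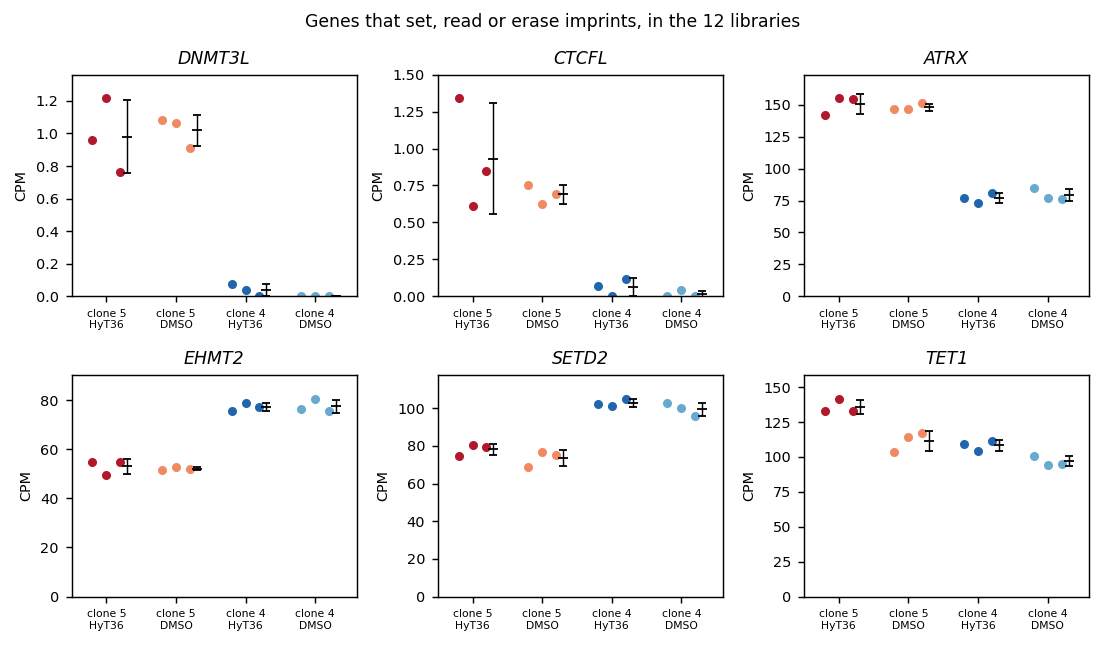
CPM (y axes, from 0, TMM-scaled) of 6 genes of the imprinting machinery in each library, by group on the x axis, with the group mean ± SD (n = 3) as a dash with bars. DNMT3L and CTCFL are near 0 in clone 4, ATRX is higher in clone 5, EHMT2 and SETD2 are lower there, and TET1 is higher with HyT36.

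DNMT3L and CTCFL are named here because of their values. DNMT3L, a cofactor without catalytic activity of its own that helps to lay down imprints in the germ line, was counted 18 to 29 times per library in clone 5 and 0 to 2 times per library in clone 4. The fitted log2 difference was 6.12 ± 0.53 (SE, edgeR adjusted p = 6.2e-13), a size that depends on the prior count because clone 4 with DMSO had 0 reads. The 149 and 3 reads give a ratio of 52.9 with an exact 95% binomial interval of 17.8 to 260. CTCFL, the germ cell paralog of CTCF, was counted 14 to 32 times per library in clone 5 and 0 to 3 times in clone 4, a ratio of 21.3 (9.51 to 59.2) and a fitted log2 difference of 4.51 ± 0.50 (SE, edgeR adjusted p = 1.8e-10). Both intervals of read ratios cover counting error only, not the spread between libraries. ZFP57 had 0 reads in every library. ZNF445, which acts beside ZFP57 in people, was lower in clone 5 (-0.25, edgeR adjusted p = 1.4e-05), as was TRIM28 (-0.16, edgeR adjusted p = 3e-06). DNMT1 was higher by 0.06 (edgeR adjusted p = 0.046). For the ligand the median absolute log2 difference was 0.066 over the 37 and 0.081 over all genes tested. Of the 37, 6 were higher and 2 lower, or 21.6% beside 14.7% of all genes tested. Among them were TET1, which oxidises methylcytosine (0.22, edgeR adjusted p = 2e-06), ATF7IP, a partner of SETDB1 (0.20, edgeR adjusted p = 5.6e-05), ZNF445 (0.19, edgeR adjusted p = 0.0039) and HELLS, a remodeller needed for DNA methylation (-0.15, edgeR adjusted p = 0.0053).

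A further list of 54 genes reported as imprinted in some tissue had 52 in the table and 24 tested, with 7 higher and 8 lower in clone 5, or 62.5% beside the 66.7% of all genes tested. TFPI2, a protease inhibitor gene close to PEG10 that is imprinted in the placenta, took 1 to 8 reads per library in clone 5 and 53 to 91 in clone 4, a log2 difference of -3.84 ± 0.26 (SE, edgeR adjusted p = 3.3e-16). ZC3H12C, an RNA-binding protein gene, was higher (0.81, edgeR adjusted p = 6.4e-12), and IGF2R, the receptor that clears IGF2, was lower (-0.29, edgeR adjusted p = 2.1e-11). With HyT36 4 of the 24 were higher and none lower, or 16.7% beside 14.7% of all genes tested (6.65% higher and 8.03% lower). These were RB1 by 0.16 (edgeR adjusted p = 3.3e-04), COPG2 by 0.17 (edgeR adjusted p = 0.021), ATP10A by 0.14 (edgeR adjusted p = 0.048) and IGF2R by 0.12 (edgeR adjusted p = 0.0022). COPG2 averaged 19.4 CPM with HyT36 and 15.3 CPM with DMSO in clone 5, and 18.3 CPM with each in clone 4. The means of RB1, ATP10A and IGF2R were higher with HyT36 in both clones. Within clone 5 alone, where the DMSO libraries are the epithelial ones, 3 of the 24 passed, beside 8.19% of all genes. Within clone 4 alone none passed, beside 5.57%. Among 18 partners of IGF2, 14 were tested, with 5 higher and 5 lower in clone 5, or 71.4% beside 66.7%. INSR, the insulin receptor, was higher (0.51, edgeR adjusted p = 1.3e-11), IRS2, its adaptor, was higher (0.40, edgeR adjusted p = 9.1e-07), and IGF2BP1, which binds IGF2 mRNA, was lower (-0.15, edgeR adjusted p = 1.1e-06). With HyT36 only IGF2R and IGF1R passed in this list, or 14.3% beside 14.7%, and IGF1R was higher by 0.13 (edgeR adjusted p = 0.019). IGFBP3 followed the epithelial libraries, which held 2098 of its reads against 22 in the others.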

How the data were processed

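Bulk RNA of 12 libraries was measured, and the other 24 samples of the series were not analysed here. The authors deposited raw read counts per gene, not normalized, per the file headers. The submitters' processing notes name the build GRCh38 and the tool Cell Ranger 7 without saying for which libraries. Aligner, annotation and strand setting were not given in the labels or headers, so a gene and its antisense or overlapping partner may share or lose reads. Columns were matched to samples by name, guide features and 4 summary entries were left out of library sizes, and symbols were matched to RefSeq coordinates of GRCh38.p14.

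Testing used edgeR 4.0.16 (R 4.3.3). filterByExpr by group kept 14892 genes, libraries were scaled by TMM, and 1 robust quasi-likelihood model with a mean per group was fitted over all 12 libraries. The clone and ligand contrasts, each also within the other factor, and their interaction were tested two-sided, with Benjamini-Hochberg adjustment over all genes tested and a threshold of 0.05. CPM values are TMM-scaled. Fitted log2 values use a prior count of 0.125, SE is the log2 value over the square root of F, and intervals are 1.96 SE to either side. Read ratios of untested genes are depth-corrected with exact binomial 95% intervals, and a floor of 3 counts gives the limit for 0 reads. The code was tested on simulated counts.

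The members and all lists were chosen with earlier results of these data known. All members were accounted for. From each other list the up to 4 genes with the smallest p per averaged comparison were named, of which 1 is not reported here, neighbours were taken within 500 kb, and chromosome medians, DNMT3L, CTCFL, IGFBP3 and further list genes were chosen after their values were seen. No source says that replicates were separate cultures, so the p-values reflect only the spread among these libraries, and that spread may be technical. Chi-square values per degree of freedom between replicates were 1.90 to 8.15, so no library looked deposited 2 times. Same-numbered libraries did not deviate together, so replicate numbers were not used as pairs. Alternatives were other size factors, other filters, DESeq2 1.42.0, limma 3.58.1 with voom, a replicate block, an epithelial covariate (marker sum over 10 CPM), each epithelial class alone, each clone alone, and each library left out.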

Additional observations from a re-analysis of the deposited data

How the results depend on the processing

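Over 2355 values of single genes under the alternatives, 2243 kept their direction and side of the threshold or were past it in neither fit, 42 newly passed, 70 no longer passed and 0 passed in the opposite direction. In 64 the sign changed where neither value passed. MEST, ZDBF2, GRB10, GNAS, PEG10, MKRN3, H19, INPP5F and ZNF597 passed the averaged clone comparison in each of 19 alternatives, and ZNF597, DLX5 and BLCAP passed the averaged ligand comparison in each of 19. With 1 library left out, 11 to 14 members passed the averaged clone comparison, 9 to 11 with DMSO and 8 to 11 with HyT36. The full fit gave 12, 9 and 8. The ranges may include members too low for a test in the full fit, so they are not directly comparable. Among members tested in the full fit, DLX5 and UBE3A lost averaged calls without replicate 1 of clone 5 with DMSO. DLX5 and BLCAP lost theirs without replicate 2 of clone 4 with DMSO. None of them gained that call in either fit, so fewer than 12 of them passed there.

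The averaged ligand count of 7 was 4 with the replicate block and 4 to 8 with 1 library left out. The clone 5 ligand count of 3 was 1 with the block and 0 to 4 with 1 library left out, with 0 without replicate 1 of clone 5 with HyT36 or with DMSO, and its split of 1 higher and 2 lower was 2 higher and 0 lower with DESeq2 size factors or DESeq2. The clone 4 ligand count of 1 was 2 with DESeq2 size factors, DESeq2, no filter, the epithelial covariate, clone 4 fitted alone or only the epithelial libraries, 0 with only the other 6 (3 at an unadjusted p under 0.05), and 1 to 3 with 1 library left out. The cause was not tested. The block changed no clone count. Replicate numbers do not pair the samples: over 18 same-numbered pairs r ran from -0.541 to 0.162, 2 were over 0.1, and 3 of 12 libraries matched their own number best.

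Over all genes the clone 4 ligand count of 830 was 287 with only the libraries poor in epithelial transcripts and 545, 532 and 409 without replicates 1, 2 and 3 of clone 4 with HyT36. The clone 5 count of 1219 was 776 with the epithelial covariate and 755 without replicate 1 of clone 5 with DMSO. The interaction count of 45 was 169 with no filter, 12 with limma-voom, 244 with the covariate, 25 and 29 without replicates 1 and 2 of clone 5 with HyT36, 27 without replicate 2 of clone 4 with HyT36 and 140 without replicate 1 of clone 4 with DMSO. At this depth a gene under about 1 CPM, such as MEST in clone 5, rests on few reads, and small ligand steps in it were not detectable.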
